A study of Mus musculus with 32 samples.

Results

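Wild-type (WT) bone marrow-derived macrophages (BMDMs) were profiled after 6 h with bacterial lipopolysaccharide (LPS) and compared with untreated WT BMDMs. The comparison rests on 4 of the 32 arrays of the series, 2 with LPS and 2 without treatment, and these were taken by the genotype and treatment in their labels, so that no measured value entered the choice. The series holds 16 groups of 2 arrays, made of WT and Ifnar1-/- cells that were left untreated or received LPS, IFNβ, the caspase inhibitor zVAD, or combinations of these with zVAD and with Nec-1, an inhibitor of the kinase RIPK1. The study asked how type I interferon (IFN) signalling shapes the inflammatory response of macrophages to necroptosis stimulation, and LPS without inhibitors is the starting point of that question. WT mice were C57BL/6J and Ifnar1-/- mice carry a germline deletion of Ifnar1, the first subunit of the type I IFN receptor, which is not limited to a cell type. The marrow cells of both genotypes were differentiated with M-CSF, the growth factor of the macrophage lineage, and all treatments lasted 6 h. By the labels IFNβ was used at 1000 U/mL and LPS at 100 ng/mL, whereas the methods and legends of the study give other doses. The age of the mice, and whether the replicates of a group came from separate mice or cultures, are not given in the sources used here, and the p-values therefore measure only the spread between these samples, which may be technical. Besides the 4 arrays, the 2 untreated and 2 LPS-treated arrays of Ifnar1-/- BMDMs and the 2 arrays of WT BMDMs with IFNβ were used to show where the WT response to LPS differed.

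LPS is a component of the outer membrane of Gram-negative bacteria that is handed over by CD14 to TLR4 and its partner MD-2. TLR4 signals from the cell surface through the adaptors MyD88 and TIRAP to NF-κB and the MAP kinases, which drive inflammatory cytokines and chemokines, and from endosomes through TRAM and TRIF to IRF3, which drives Ifnb1. Secreted IFNβ then acts back on the same cells through IFNAR1 and the factor ISGF3, which contains STAT2 and IRF9, which binds IFN-stimulated response elements (ISREs) in the promoters of antiviral genes. Many of the genes that are induced early encode inhibitors of the same pathways, and macrophages stimulated in this way also change their metabolism and leave the cell cycle.

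Each array carried 55681 probes for mouse transcripts, read in 1 colour, and all values below are log2 intensities of the brightest probe of a gene after quantile normalization between arrays. The number of arrays, 2 per group, limits the precision. On the 4 arrays 62.52% to 73.1% of the probes were well above background and 0 were saturated. A defining set of 8 macrophage markers was above background on all 4 arrays, with summed levels of 19.91 to 19.96 on the untreated arrays and 19.83 to 19.88 on the LPS arrays. Markers of other cell types were also detected, and 9 of 10 neutrophil markers were above background on both arrays of each condition, with summed levels of 14.31 and 15.37 without treatment and of 14.82 and 15.6 with LPS. The part of these markers in the results was not tested, and in bulk RNA fewer cells of a type cannot be told apart from less RNA per cell. Of 9 T and NK cell markers on the array 6 were above background on both untreated and 5 on both LPS arrays (summed 13.33 and 13.41, and 13.75 and 13.26), and of 8 fibroblast markers 6 and 6 (9.42 and 10.38, and 10.71 and 11.15). Cd3d and Cd3g of T cells and Pdgfra and Lum of fibroblasts were above background on neither LPS array. Other members of these lists were above background on both, such as Cd3e (11.42 and 10.45), Cd4 (12.72 and 11.84) and Col1a2 (8.67 and 9.18). Among neutrophil markers S100a8, a calprotectin subunit, was at 11.73 and 12.17 without and at 13.88 and 14.47 with LPS (2.23 log2), and Camp, an antimicrobial peptide, at 7.61 and 8.98 and at 10.65 and 11.33 (2.69 log2). Both were called higher, and of the 9 neutrophil markers tested 7 were not called and 0 were called lower (median -0.17 log2). Those not called include Elane, at 13.13 and 13.98 without and at 12.72 and 11.78 with LPS. Mmp8, also not called, was at 10.7 and 11.27 and at 9.74 and 10.54. The dendritic cell factor Zbtb46 was at 6.59 and 5.89 and at 10.25 and 9.74 (3.76 log2), and 6 of 8 dendritic cell markers were above background on both arrays of each condition (summed 16.58 and 16.33, and 16.35 and 16.09). Lck, of the T cell list, was at 7.75 and 7.49 without and at 12.02 and 12.17 with LPS, and Pdgfrb, of the fibroblast list, at 5.25 and 5.88 and at 9.87 and 10.11. The list medians were -0.18 log2 for dendritic cells, 0.26 for T and NK cells and -0.13 for fibroblasts. Of the markers tested, 2 of 5, 1 of 6 and 2 of 5 were called higher and 0 lower. Of 6 B cell markers tested, 1 was called higher and 2 lower (median 0.30 log2). The 3 probes of Ifnar1 read 14.22 and 14.19, 9.98 and 9.94, and 8.53 and 8.31 on the 2 untreated WT arrays, against 11.89 and 11.87, 7.93 and 8.02, and 6.48 and 7.06 on the untreated Ifnar1-/- arrays. All 3 probes were thus lower in the cells labelled Ifnar1-/-, and all stayed above background there. With 1 array left out, the call ended for Camp (LPS 2 or untreated 1, adjusted p up to 0.14).

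LPS changed the level of 6515 of 15685 genes at an adjusted p under 0.05 (limma), of which 2587 (16.5%) were higher and 3928 (25.0%) lower than in untreated cells. A change of 2-fold or more was seen in 1776 of the higher and 2718 of the lower genes. Among the called genes 817 rose and 1013 fell at least 4-fold, 205 rose and 125 fell at least 16-fold, and 58 rose and 15 fell at least 64-fold, so that rises led only among the larger changes. At least 256-fold, 12 genes rose and 0 fell. Each pair of an untreated and an LPS array shared a slide, and 6508 of the called genes (99.9%) moved the same way on both slides. The call uses both slides and so favours such agreement. Over all 15685 genes the changes on the 2 slides correlated with r = 0.905. The balance of rises and falls depended on how the arrays were scaled. Quantile normalization gave 39.7% of the called genes as higher and a median log2 fold change of -0.08 over all genes, and a shift of each array to a common 75th percentile gave 2955 higher and 2918 lower genes (50.3% higher) and a median of 0.08. Small changes are therefore to be read against these medians. Counts called in the lists below are to be read against the 16.5% and 25.0% of all genes. Where the call of a gene named below ended when 1 array was left out, the arrays concerned are given by group and replicate number, with the highest adjusted p. Calls that ended under other processing are given in the same way, by the 75th percentile shift, normexp background correction (normexp), the authors' normalized values, the median of a gene's probes (probe median), the filter on dim probes left out (no filter) or applied to the groups compared (group filter), and the fit to only the arrays compared.

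**Figure D1:**
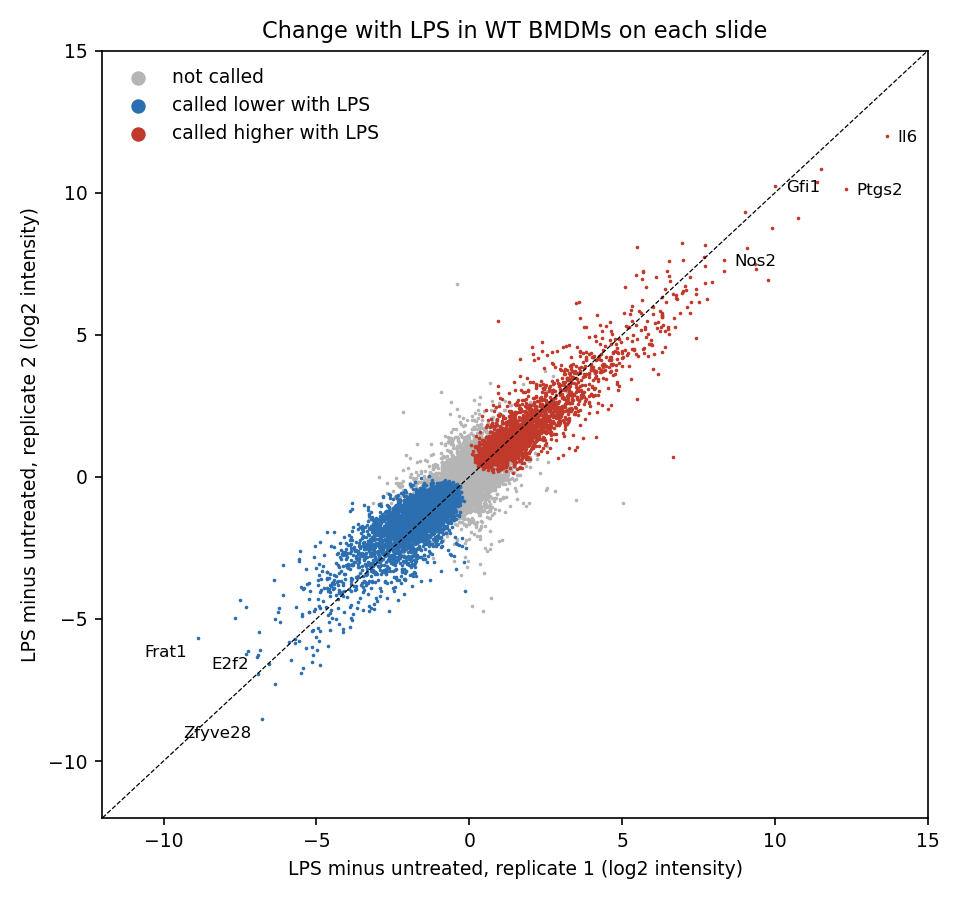
Change with LPS in WT BMDMs for each of 15685 genes, as LPS minus untreated log2 intensity on the slide of replicate 1 (x axis) and on that of replicate 2 (y axis), with genes called higher in red, called lower in blue and not called in grey, and the line of equal change dashed. Of the 6515 genes called from both slides, 6508 lie in the upper right or lower left part of the plot, where the change has 1 sign on both slides.

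The genes with the largest rises included cytokines, enzymes and a transcriptional repressor. Il6, the cytokine of the acute phase response, was at 3.38 and 3.54 in the untreated and at 17.06 and 15.55 in the LPS-treated replicates, a rise of 12.85 log2 or 7372-fold (standard error (SE) 1.60, adjusted p = 5.45e-06). Ptgs2, the inducible cyclooxygenase COX-2, went from 4.08 and 5.44 to 16.41 and 15.58 and rose by 11.23 log2 (SE 1.44, adjusted p = 7.55e-06). Serpinb2, an inhibitor of plasminogen activators, went from 3.06 and 4.07 to 14.56 and 14.92 and rose by 11.17 log2 (SE 1.41, adjusted p = 6.38e-06). In all of these genes both LPS arrays lay far above both untreated arrays, and the probes of Il6 and Serpinb2 were above background on 1 of the 2 untreated arrays. Edn1 encodes the vasoconstrictor endothelin-1, and its probe was not well above background on either untreated array (2.47 and 2.53). With LPS it reached 13.85 and 12.90, at least 1302-fold higher (adjusted p = 7.01e-07), where the bound sets the lowest signal among probes well above background on an array in place of the dim value. Gfi1, a transcriptional repressor, rose from 3.0 and 3.38 to 13.02 and 13.62 (10.13 log2, SE 1.74, adjusted p = 0.000135). Il1a, a cytokine that also acts as an alarmin, rose from 2.32 and 3.41 to 13.09 and 12.52 (9.94 log2, SE 1.54, adjusted p = 5.2e-05). Both Gfi1 and Il1a were above background on 1 of the 2 untreated arrays, so the size of their rises is uncertain.

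Others among the 15 genes with the largest rises ranged from 7.61 log2 for Ambp, the precursor of α1-microglobulin and bikunin, to 9.32 log2 for the neutrophil chemokine Cxcl3. Hdc, which makes histamine from histidine, was at 5.55 and 6.35 without and at 14.62 and 14.42 with LPS (8.57 log2, adjusted p = 2.66e-06). Ch25h, which hydroxylates cholesterol to an antiviral oxysterol, was at 5.48 and 5.86 and at 15.26 and 12.81 (8.37 log2, adjusted p = 5.54e-07). Nos2, the inducible nitric oxide synthase, was at 8.15 and 7.86 and at 16.49 and 15.49 (7.98 log2, SE 0.56, adjusted p = 1.91e-08). The 2 LPS arrays of Ch25h lay well apart, and still by less than their distance to the untreated arrays. The monocyte chemokines Ccl12 and Ccl7 rose by 8.43 and 8.34 log2 (adjusted p = 1.9e-06 and 4.44e-07). Slfn4, a Schlafen family gene of myeloid cells, rose by 7.78 log2 (adjusted p = 1.07e-06), and Tarm1, an activating receptor of myeloid cells, by 7.71 log2 (adjusted p = 0.000215). Ambp itself went from 3.60 and 3.13 to 10.58 and 11.37 (adjusted p = 1.49e-06).

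**Figure D2:**
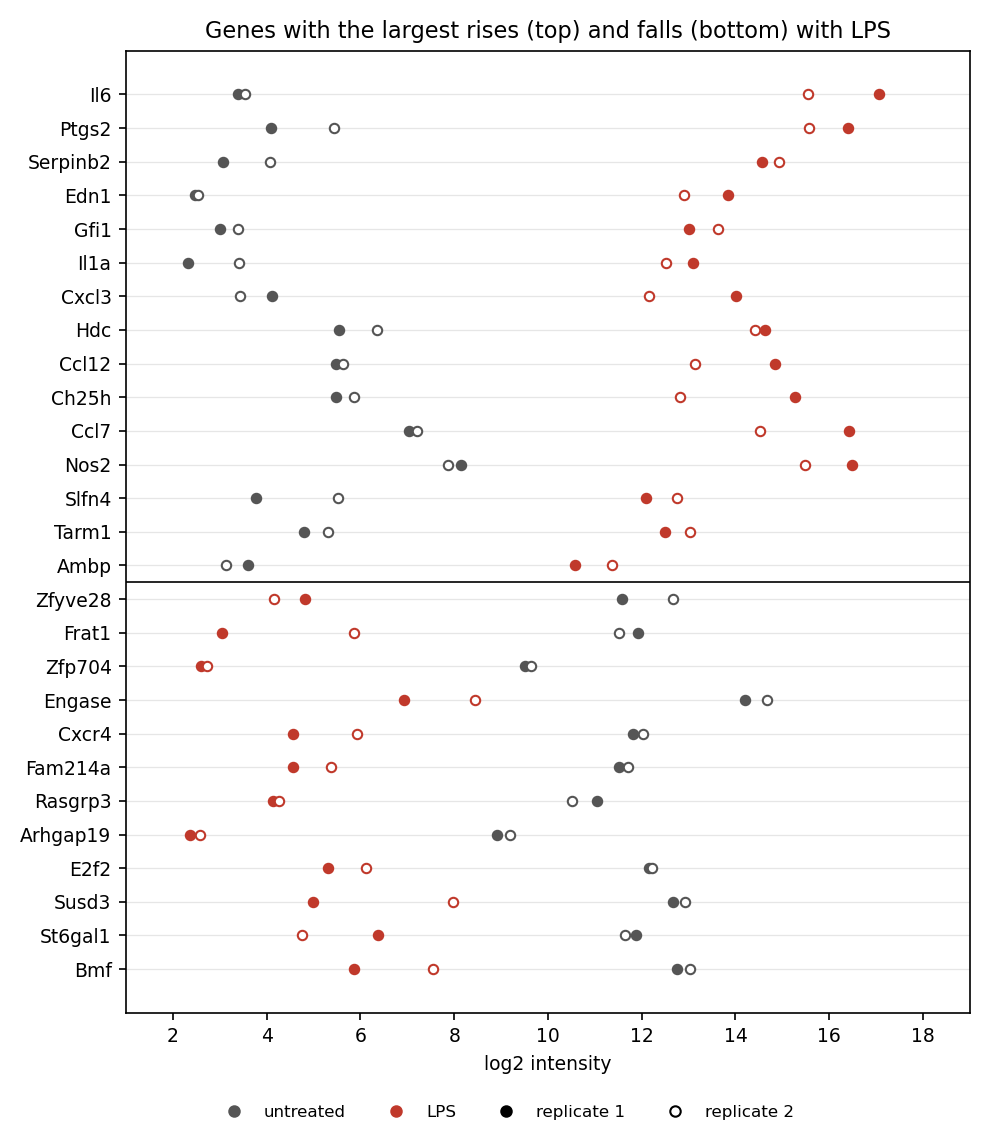
Log2 intensity (x axis) of the 15 named genes with the largest rises (upper block) and the 12 with the largest falls (lower block) on the untreated (grey) and LPS (red) arrays of WT BMDMs, with replicate 1 filled and replicate 2 open. In every one of these genes the 2 LPS arrays lie on the same side of both untreated arrays. A change of 1 direction on both slides was a condition of their choice.

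Of 22 inflammatory cytokines tested, 20 were called higher and 0 lower, with a median log2 fold change of 5.04 where that of all genes was -0.08. Tnf, which acts on endothelium and on the macrophages themselves, was at 10.47 and 10.22 without and at 16.79 and 15.87 with LPS (5.98 log2, SE 1.11, adjusted p = 0.000273). Il1b, the precursor of the pyrogen IL-1β, was at 10.09 and 10.99 and at 17.79 and 17.82 (7.26 log2, SE 1.80, adjusted p = 0.00313). Its natural antagonist Il1rn rose as well, by 7.57 log2 (adjusted p = 3.79e-09). The anti-inflammatory Il10 went from 6.49 and 7.10 to 12.54 and 11.43 (5.19 log2), and its relative Il19 from 5.56 and 4.65 to 12.12 and 11.73 (6.82 log2). Ifnb1, the start of the autocrine IFN loop, went from 4.22 and 5.39 to 10.38 and 9.0 (4.89 log2, SE 1.02, adjusted p = 0.00077). Members of the TNF superfamily that bind costimulatory or death receptors rose too, with 5.84 log2 for Tnfsf9 (4-1BB ligand), 5.32 for Tnfsf15 (TL1A) and 4.37 for Tnfsf10 (TRAIL). Smaller rises were called for Csf1 (3.58), the growth factor of macrophages, Il18 (3.14), Il27 (2.83) and its partner subunit Ebi3 (2.20), and Il15 (2.13). The 2 cytokines that were not called were Mif and Tgfb1, with log2 fold changes of 0.41 and -0.28. The call ended with 1 array left out for Il15 (LPS 1 or untreated 1, adjusted p up to 0.183). Other processing ended the call for Il15 (only the arrays compared, adjusted p up to 0.0609).

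Members of the gene lists too dim in the rest of the series to be tested numbered 33, of which 14 were above background on both LPS arrays and 9 of these on neither untreated array. They included Il12b, the p40 subunit of IL-12 and IL-23, at 2.67 and 2.87 without and at 15.26 and 13.11 with LPS, at least 2283-fold higher. Its partner subunit Il12a was at 4.12 and 2.19 without and at 8.83 and 8.12 with LPS. The growth factor of granulocytes, Csf3, went from 2.52 and 2.59 to 10.11 and 10.06 (at least 133-fold higher), and Slamf1, a receptor of the SLAM family, from 2.52 and 2.34 to 10.11 and 11.00 (at least 185-fold). These genes had no test, since the filter left them out, and both LPS arrays were above both untreated arrays in each. Il23a, Ccl20 and Ccl11 were not above background on either LPS array.

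Chemokines that attract neutrophils and monocytes rose together. Of 12 CXC chemokines tested, 6 were called higher and 1 lower (median 1.28 log2), and of 12 CC chemokines 11 were called higher and 0 lower (median 4.38). The promoters of 4 genes of this response and of the NF-κB inhibitor Nfkbia are shown because each holds the letters GGGANNTTCC, a form of the NF-κB site, within 250 bases upstream of its start. The sequences run from 30 bases before the first match to 30 bases after the last, or to the base before the start of transcription where that is nearer, are from RefSeq on GRCm38.p6, and carry the matched bases in capitals. Il6 lies at chr5:30013040-30013109 (+ strand), Cxcl1 at chr5:90891144-90891214 (+), Cxcl2 at chr5:90903772-90903842 (+), Cxcl3 at chr5:90785998-90786068 (+) and Nfkbia at chr12:55492648-55492706 (- strand).
Il6: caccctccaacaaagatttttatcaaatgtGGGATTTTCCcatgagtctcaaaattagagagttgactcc
Cxcl1: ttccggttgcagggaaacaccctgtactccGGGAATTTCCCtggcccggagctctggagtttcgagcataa
Cxcl2: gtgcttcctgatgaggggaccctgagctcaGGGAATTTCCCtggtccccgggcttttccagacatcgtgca
Cxcl3: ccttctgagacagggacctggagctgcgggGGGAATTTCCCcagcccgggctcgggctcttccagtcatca
Nfkbia: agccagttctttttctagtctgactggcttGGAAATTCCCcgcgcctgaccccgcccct
The motif was searched on both strands, and in Cxcl1, Cxcl2 and Cxcl3 the matches on the 2 strands overlap in a run of 11 bases. It was found in 1.21% of 32851 promoters of 27025 mouse genes, in 1.74% of those of genes called higher with LPS, in 1.2% of genes called lower, in 6.45% (12 of 186) of those of genes that rose by at least 4 log2 and in 36.4% (4 of 11) of those of CXC chemokines. Promoters were on record for 153 of the 205 genes that rose by at least 4 log2 and for 11 of the 14 CXC chemokines listed. No promoter of a CC chemokine held it in this window (0 of 11), which says only that these letters are not there. A match is a description of the sequence, and binding was not measured.

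The 3 neutrophil chemokines whose promoters are shown were among the strongest. Cxcl1 was at 7.55 and 7.91 without and at 14.09 and 12.94 with LPS (5.78 log2, SE 1.46, adjusted p = 0.00366). Cxcl2 was at 8.47 and 8.50 and at 14.88 and 13.64 (5.78 log2, adjusted p = 0.00319), and Cxcl3 at 4.12 and 3.42 and at 14.02 and 12.16 (9.32 log2, SE 2.49, adjusted p = 0.00534). These genes are close in sequence and their probes may share signal. The ligands of CXCR3, which attract T cells, followed with Cxcl9 at 6.96 and 6.71 and at 13.40 and 12.85 (6.29 log2, adjusted p = 1.27e-06) and Cxcl10 at 13.31 and 13.31 and at 18.02 and 17.68 (4.54 log2, adjusted p = 0.00156). Cxcl14 was the CXC chemokine called lower, at 13.67 and 13.13 and at 12.53 and 11.63 (-1.32 log2). Cxcl16 (0.23) and Pf4 (0.19) were not called. Leaving out 1 array ended the call for Cxcl14 (LPS 2 or untreated 1, adjusted p up to 0.186). Processed otherwise, the call ended for Cxcl14 (only the arrays compared, adjusted p up to 0.0716).

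Among the CC chemokines, Ccl2, the main attractant of monocytes, was at 9.63 and 9.59 without and at 16.87 and 15.37 with LPS (6.51 log2, SE 0.59, adjusted p = 2.14e-07). Ccl3, Ccl4 and Ccl5 attract T cells and monocytes. Ccl4 went from 10.71 and 11.42 to 18.13 and 17.86 (6.93 log2, adjusted p = 5.54e-07), Ccl3 from 12.15 and 12.46 to 17.64 and 17.30 (5.17 log2, adjusted p = 0.000146), and Ccl5 from 15.30 and 13.52 to 18.01 and 17.93 (3.56 log2, adjusted p = 0.00522). The 2 untreated arrays of Ccl5 differed from each other, and both lay below the LPS arrays. Ccl17 (3.60), which attracts T cells, and Ccl24 (2.90), which attracts eosinophils, also rose, and Ccl6 was the CC chemokine not called (-0.48). With the slide as a block in the fit, Ccl6 (adjusted p = 0.00406) was called. The call that ended with 1 array left out was that of Ccl5 (untreated 2, adjusted p up to 0.0859).

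The receptors for such signals changed in both directions, with 8 of 18 chemokine and chemotactic receptors called higher and 4 lower (median 1.35 log2). The shares of all genes called were 16.5% and 25.0%. The formyl peptide receptors, which sense bacterial peptides, stood out. Fpr1 was at 9.53 and 9.37 without and at 15.65 and 16.41 with LPS (6.58 log2), and Fpr2 at 9.52 and 9.06 and at 15.98 and 16.32 (6.86 log2). Ccr1, a receptor of inflammatory CC chemokines, rose by 3.37 log2, Ccr7, which guides cells to lymph nodes, by 2.54, Ccr3 by 2.17 and C5ar1, the receptor of complement C5a, by 1.62. Cxcr4, which retains cells in the bone marrow, fell from 11.81 and 12.04 to 4.57 and 5.92 (-6.68 log2, SE 1.06, adjusted p = 6.08e-05). Gpr183, the receptor for oxysterols that are made through Ch25h, fell by 4.32 log2, with Cxcr3 at -3.68 and C5ar2 at -2.72. Ccr2, the receptor of Ccl2, had a log2 fold change of -1.23, and it was not called. Among these genes, leaving out 1 array ended the call for Ccr7 (LPS 2 or untreated 1, adjusted p up to 0.303). Under other processing the call ended for Ccr7 (no filter, group filter, only the arrays compared, adjusted p up to 0.0775).

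Of the TLR4 complex and its adaptors 14 of 27 genes were called higher and 3 lower (median 0.87 log2). The receptor Tlr4 itself was at 12.08 and 12.32 without and at 11.31 and 11.38 with LPS (-0.85 log2, adjusted p = 0.0526), so that the LPS arrays lay below the untreated ones without passing the threshold. Its partner Ly96, which encodes MD-2, rose by 0.87 log2 (adjusted p = 0.0221) and the coreceptor Cd14 by 1.47 log2 (adjusted p = 0.0317), while Lbp, the LPS-binding protein of serum, had 0.37 log2. The adaptors rose, with 2.12 log2 for Myd88, 1.32 for Tirap and 1.13 for Ticam1, which encodes TRIF. Among the kinases, Irak2 (1.43), Tbk1 (1.20) and Ikbke (2.13) rose and Irak1 fell (-0.88). Irak3, an inhibitory member of the IRAK family, had the largest rise of the list, from 11.91 and 11.79 to 14.90 and 15.02 (3.11 log2). Another inhibitor of the pathway, Sigirr, fell by 1.24 log2. A block for the slide brought Tlr4 (adjusted p = 0.00188) past the threshold. With 1 array left out, the call ended for Ly96 (LPS 2 or untreated 1, adjusted p up to 0.166), Cd14 (any array, 0.162), Ikbke (LPS 1, 0.05) and Sigirr (LPS 1 or untreated 2, 0.109). The call ended under other processing for Ly96 (only the arrays compared, adjusted p up to 0.0723), Cd14 (authors' values, 0.065) and Irak1 (75th percentile shift, only the arrays compared, 0.0723).

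Sensors of other microbial products were raised more often than not, with 16 of 27 called higher and 4 lower (median 2.02 log2). Tlr3, which senses double-stranded RNA, was at 7.49 and 8.06 without and at 11.39 and 10.64 with LPS (3.24 log2). Tlr1 rose by 2.60 log2, whereas its partner Tlr2 was already at 15.11 and 15.11 in untreated cells and had 0.46 log2. Tlr5, the flagellin receptor, had 0.06. The cytosolic peptidoglycan sensors Nod1 and Nod2 rose by 2.87 and 3.61 log2, and the inflammasome sensor Nlrp3 went from 8.10 and 8.02 to 11.69 and 11.05 (3.31 log2). The scavenger receptor Marco (4.86) and the lectin Clec4e (4.54), which binds mycobacterial glycolipid, rose further. Those called lower were Tlr13 (-1.40), which senses bacterial ribosomal RNA, the β-glucan receptor Clec7a (-1.39), and Mavs (-1.29) and Sting1 (-1.21), the adaptors of cytosolic RNA and DNA sensing. The call ended with 1 array left out for Marco (LPS 1, LPS 2 or untreated 2, adjusted p up to 0.154), Mavs (LPS 1 or untreated 2, 0.12) and Sting1 (any array, 0.108). Calls also ended under other processing for Tlr13 (75th percentile shift, adjusted p up to 0.0584), Mavs (75th percentile shift, only the arrays compared, 0.064) and Sting1 (75th percentile shift, 0.162).

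Inhibitors of the response were raised with its activators. Of 21 NF-κB subunits and inhibitors 13 were called higher and 1 lower (median 1.92 log2). Nfkbia, the inhibitor IκBα whose promoter is shown above, went from 15.49 and 15.59 to 17.46 and 17.40 (1.90 log2, SE 0.46, adjusted p = 0.00282). Tnfaip3, the ubiquitin-editing enzyme A20, went from 11.83 and 11.98 to 16.66 and 16.38 (4.61 log2), and Nfkbiz, a nuclear IκB needed for secondary genes such as Il6, rose by 3.97 log2. Of the subunits, Nfkb1 rose by 2.01 and Nfkb2 by 2.47 log2, and Rela had 0.60. Rel was at 5.77 and 5.75 without and at 9.05 and 8.18 with LPS, and with a log2 fold change of 2.85 and an adjusted p of 0.0605 it was not called although the groups did not overlap. Cyld, a deubiquitinase that restrains the pathway, was the member called lower, from 10.88 and 11.12 to 8.32 and 9.0 (-2.34 log2). Fitted with the slide as a block, Rela (adjusted p = 0.0387) and Rel (0.000368) passed the threshold.

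Feedback genes of the MAP kinases, of cytokine receptors and of mRNA decay behaved less uniformly. Of 11 MAPK phosphatases 4 were called higher and 1 lower (median 1.15). Dusp1, which inactivates p38 and JNK, went from 10.81 and 11.19 to 14.31 and 13.60 (2.96 log2) and Dusp2 from 10.45 and 11.25 to 16.96 and 16.46 (5.86 log2), Dusp3 fell by 2.71 log2 and Dusp4 had 1.20. The cytokine signalling inhibitor Socs3 was at 10.56 and 10.94 without and at 17.57 and 17.48 with LPS (6.77 log2), and Socs1 rose by 5.09. Of 23 factors that act on AU-rich elements or decay mRNA, 10 were called higher and 7 lower (median 0.11), and under the 75th percentile shift the lower ones were 3. Zfp36 encodes tristetraprolin, which binds AU-rich elements of Tnf and other cytokine mRNAs and brings them to decay. It was at 10.41 and 10.39 without and at 13.61 and 12.24 with LPS (2.53 log2, SE 0.55, adjusted p = 0.00115). Its paralogs moved the other way, with Zfp36l2 at 15.85 and 16.08 and at 11.26 and 12.54 (-4.07 log2) and Zfp36l1 at -3.51 log2. Zc3h12a, the endonuclease Regnase-1, rose by 3.14 log2, Mapkapk2, the kinase MK2 that acts on tristetraprolin, by 2.14, and Elavl1, which encodes the stabilizing protein HuR, by 0.69. Leaving out 1 array ended the call for Elavl1 (LPS 2, adjusted p up to 0.0706). Other processing ended the call for Elavl1 (probe median, only the arrays compared, adjusted p up to 0.514), with 0.22 log2 by the probe median.

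The immediate early factors had changes of modest size at 6 h, with 10 of 25 called higher and 4 lower (median 0.54), and 8 called in all without LPS replicate 1. Fos, a subunit of AP-1, was at 12.68 and 12.82 without and at 11.46 and 11.70 with LPS and was lower (-1.17 log2, adjusted p = 0.013), and Fosb had 0.04. Fosl1 and Fosl2, later members of the same family, rose by 1.27 and 1.32 log2, and Junb by 1.78. The largest rise was in Maff (3.32), a small Maf protein. Cebpb (1.85) and Cebpd (2.07), activators of acute phase and cytokine genes, rose. Klf2 (-1.46) and Klf4 (-1.08), factors of resting or mature macrophages, fell. Calls that ended with 1 array left out were those of Fos (LPS 1 or untreated 2, adjusted p up to 0.0888), Fosl1 (LPS 1, LPS 2 or untreated 2, 0.157), Fosl2 (LPS 1, LPS 2 or untreated 1, 0.173) and Klf4 (any array, 0.151). Processed otherwise, the call ended for Klf4 (75th percentile shift, normexp, authors' values, no filter, group filter, adjusted p up to 0.131).

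Nearly all antiviral genes tested were raised. Of 52 IFN-stimulated antiviral genes 47 were called higher and 1 lower, with a median of 2.56 log2, and all 13 of the 13 IFN-inducible GTPases tested were higher, with a median of 3.58. Promoters of 5 of these genes are shown because they hold the letters GAAANNGAAA, the core of the ISRE, in the 250 bases before the start. They too are RefSeq sequences on GRCm38.p6 with 30 bases on either side of the matches as far as the start allows, with matches on either strand in capitals and overlapping matches run together. Ifit1 lies at chr19:34640755-34640843 (+ strand), Isg15 at chr4:156200845-156200926 (- strand), Gbp2 at chr3:142620574-142620643 (+), Igtp at chr11:58199492-58199555 (+) and Irgm1 at chr11:48871421-48871480 (-).
Ifit1: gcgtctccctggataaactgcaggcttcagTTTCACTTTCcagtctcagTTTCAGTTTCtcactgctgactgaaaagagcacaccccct
Isg15: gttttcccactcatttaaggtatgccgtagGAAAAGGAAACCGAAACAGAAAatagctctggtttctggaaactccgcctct
Gbp2: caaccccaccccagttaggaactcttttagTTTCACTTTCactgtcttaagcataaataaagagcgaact
Igtp: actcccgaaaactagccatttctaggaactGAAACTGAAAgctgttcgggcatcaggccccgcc
Irgm1: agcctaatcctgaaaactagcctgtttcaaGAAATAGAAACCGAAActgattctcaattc
The letters were found in 2.98% of all promoters, in 4.63% of those of genes called higher, in 2.3% of genes called lower, in 32.7% (18 of 55) of those of the antiviral genes and in 88.9% (8 of 9) of those of the GTPases. Promoters were on record for 42 of the 52 antiviral genes and for 8 of the 14 GTPases listed. Isg15 holds 3 matches in 1 run, Ifit1 and Irgm1 hold 2 each, and Gbp2 and Igtp hold 1.

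Ifit1, whose product binds viral RNA, was at 11.74 and 11.38 without and at 16.37 and 15.34 with LPS (4.30 log2), and Ifit2 at 11.64 and 11.74 and at 16.33 and 15.32 (4.14 log2). Rsad2 encodes viperin, an enzyme that makes a chain-terminating nucleotide, and went from 11.87 and 11.95 to 17.64 and 16.88 (5.35 log2). Its neighbour Cmpk2 rose by 4.90 log2, Isg20, an exonuclease, by 4.74 and Mx1, a dynamin-like GTPase, by 5.04. The ubiquitin-like modifier Isg15 was high before treatment, at 15.32 and 14.98, and reached 18.25 and 18.18 (3.07 log2). Ifit3 rose by 2.85 log2. Among the GTPases that act on vacuoles of intracellular pathogens, Gbp2 went from 12.90 and 12.83 to 17.80 and 17.70 (4.88 log2), Gbp3 from 12.51 and 12.86 to 16.98 and 16.76 (4.19 log2) and Gbp5 from 10.09 and 10.15 to 16.34 and 16.01 (6.06 log2). Gbp4 rose by 4.93 log2, Igtp by 3.58 and Irgm1 by 2.44. Members of the Gbp and Ifit families are close in sequence, so their probes may share signal. Among these genes, leaving out 1 array ended the call for Ifit1 (LPS 1, adjusted p up to 0.0689).

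The factors of the IFN pathway rose less uniformly, with 14 of 32 IRF, STAT and SOCS genes called higher and 3 lower (median 0.58), and 11 called in all without LPS replicate 1. Irf7, the factor that amplifies IFN production, was at 12.14 and 12.57 without and at 15.51 and 15.28 with LPS (3.04 log2). Irf1 rose by 0.96 log2 (adjusted p = 0.0309) and Irf2 by 0.66, and Irf3, which is activated by phosphorylation, had -0.37. Stat2 (1.61) and Stat3 (1.81) rose. Usp18, which removes ISG15 and blocks the IFN receptor, rose by 4.18 log2, and Irf4, a factor of alternatively activated macrophages, fell by 3.93. With 1 array left out, the call ended for Irf1 (any array, adjusted p up to 0.15) and Irf2 (LPS 1, 0.114). Under other processing the call ended for Irf2 (only the arrays compared, adjusted p up to 0.12).

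The response to LPS was then compared with that of Ifnar1-/- BMDMs, by subtracting the change in Ifnar1-/- cells from that in WT cells. The change with LPS differed for 1062 genes, of which 574 (3.66%) had the larger, more positive change in WT and 488 (3.11%) the smaller one. With the slide as a block this count was 2673, without replicate 1 of WT with LPS it was 531 and without replicate 2 it was 1616. Of the 1062 genes, 502 were higher with LPS in WT and had the larger rise there. Each slide held 1 genotype, so that levels of the genotypes cannot be told apart from levels of the slides, whereas the slide cancels within each change. Of the 52 antiviral genes 24 had the larger change in WT and 3 the smaller, and of the 13 GTPases 7 had the larger. The median change of the antiviral genes was 2.56 log2 in WT and 0.89 in Ifnar1-/- BMDMs, where 27 were called higher, and that of the GTPases was 3.58 and 0.16. In Ifnar1-/- BMDMs 4 of the 13 GTPases were called higher. Of all 15685 genes, 1748 were called higher with LPS in Ifnar1-/- BMDMs. Gbp2 changed by 4.88 log2 in WT and by 6.38 in Ifnar1-/- cells, and Gbp5 by 6.06 and 8.27. Gbp3 had 4.19 and 4.57, Gbp7 4.03 and 4.99, and the antiviral gene Ifit1 4.30 and 8.76. None of these differences was called. The letters of the ISRE were found in 9.9% (50 of 505) of the promoters on record, which cover 388 of the 502 genes. The share over the promoters of all genes tested was 2.89%.

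Antiviral genes with the larger rise in WT included the following. Ifit2 rose by 4.14 log2 in WT, and in Ifnar1-/- cells it was at 5.82 and 6.02 without LPS and not well above background on either LPS array (difference 5.54). Rsad2 had 5.35 log2 in WT and 0.88 in Ifnar1-/- cells (difference 4.47), Cmpk2 4.90 and -0.22 (5.12), Irf7 3.04 and -0.83 (3.87), and Igtp 3.58 and -0.10 (3.68). Genes of chemokines, cytokines and feedback were among them too. Ccl2 rose by 6.51 log2 in WT and had 2.26 in Ifnar1-/- cells (difference 4.25), Cxcl9 had 6.29 and 2.68 (3.62), Il1rn 7.57 and 2.93 (4.64), and Il19 6.82 and 1.34 (5.47). Tnfsf10 was not well above background on any of the 4 Ifnar1-/- arrays (difference 5.14). Dusp1 rose by 2.96 log2 in WT and had -0.55 in Ifnar1-/- cells (difference 3.51), with arrays at 12.98 and 11.96 without and at 12.06 and 11.77 with LPS in the latter. Zfp36 had 2.53 and 0.32, and its difference of 2.21 was not called (adjusted p = 0.1). With the slide as a block in the fit, Zfp36 (adjusted p = 0.0151) was called. The call of the difference ended with 1 array left out for Rsad2 (LPS 1, Ifnar1-/- LPS 2 or Ifnar1-/- untreated 1, adjusted p up to 0.0746), Cxcl9 (any array but LPS 2, 0.126) and Dusp1 (Ifnar1-/- untreated 1, 0.0529).

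The 8 named genes with the largest differences in this direction were Slfn4, Lhx2, Ccl7, Slc28a2b, Slc28a2, Oas3, Ifi214 and Ifi209. Slfn4 was at 3.77 and 5.52 without and at 12.10 and 12.74 with LPS in WT, and was not well above background on any of the 4 Ifnar1-/- arrays (difference 7.66 log2, SE 1.17, adjusted p = 0.000568). Lhx2, a LIM homeobox factor, was at 6.62 and 6.15 and at 12.93 and 11.80 in WT and at 6.23 and 6.44 and at 4.92 and 4.93 in Ifnar1-/- cells (difference 7.39, adjusted p = 3.07e-05). The nucleoside transporter Slc28a2 was at 10.52 and 11.05 and at 16.33 and 16.54 in WT and at 11.15 and 11.37 and at 10.56 and 11.00 in Ifnar1-/- cells (difference 6.13, adjusted p = 3.16e-06). Its near-identical paralog Slc28a2b had a difference of 6.20, and the probes of this pair may share signal. Ccl7 (7.18), the OAS enzyme Oas3 (6.02) and the DNA-binding Ifi200 family members Ifi214 (5.96) and Ifi209 (5.56) completed the set, and Ifi214 was not well above background on any of the 4 Ifnar1-/- arrays. Oas3 rose by 2.02 log2 in WT and went from 9.0 and 8.92 to 5.04 and 4.91 in Ifnar1-/- cells, where its probe was above background on 1 of the 2 LPS arrays. Leaving out 1 array ended the call for Ifi209 (difference, any array but LPS 2 or untreated 2, adjusted p up to 0.0863) and Oas3 (change with LPS, LPS 1, LPS 2 or untreated 1, 0.125). The call ended under other processing for Ifi209 (difference, normexp, adjusted p up to 0.0515).

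Of the antiviral genes, 3 had the smaller change in WT, namely Isg15, Rtp4 and Ifitm3. Isg15 rose by 3.07 log2 in WT and by 6.86 in Ifnar1-/- BMDMs, where it went from 10.58 and 10.50 to 17.50 and 17.29 (difference -3.79, adjusted p = 0.0486). Rtp4, a chaperone of receptors, was at 16.02 and 16.02 without and at 17.18 and 17.25 with LPS in WT, a change that was not called, and at 4.80 and 5.92 and at 13.14 and 12.87 in Ifnar1-/- cells (difference -6.44, adjusted p = 0.00534). Both started from lower untreated values on the Ifnar1-/- slides than on the WT slides. Ifitm3, which blocks the entry of viruses, had a difference of -2.58 log2. Cish, an inhibitor of STAT5, rose by 2.30 log2 in WT and by 5.70 in Ifnar1-/- cells (difference -3.39). For Tnf the changes were 5.98 and 7.58 log2, for Il1b 7.26 and 10.58 and for Cxcl1 5.78 and 10.48. Il6 rose by 12.85 log2 in WT and at least 9368-fold in Ifnar1-/- cells, where it was not well above background on either untreated array and at 17.28 and 17.46 with LPS. Ifnb1 was not well above background on either untreated Ifnar1-/- array and rose at least 169-fold there, to 11.50 and 11.65. None of these 5 genes had a called difference, with values from -4.70 log2 for Cxcl1 (SE 2.07) to -1.60 for Tnf (SE 1.57). The SEs rest on the spread within all 16 groups, and a difference without a call was not shown to be absent. A block for the slide brought the difference of Ifnb1 (-3.88 log2, adjusted p = 0.0377) past the threshold. Calls that ended with 1 array left out were those of Isg15 (difference, any array, adjusted p up to 0.14), Cish (change with LPS, LPS 1, 0.0544) and Cish (difference, untreated 2, Ifnar1-/- LPS 2 or Ifnar1-/- untreated 1, 0.057). Calls also ended under other processing for Isg15 (difference, 75th percentile shift, normexp, authors' values, no filter, probe median, group filter, adjusted p up to 0.102).

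The same direction held genes that fell in WT and fell less, or did not fall, in Ifnar1-/- cells. Irf4 was at 7.98 and 8.76 without and at 4.07 and 4.82 with LPS in WT and at 7.91 and 8.40 and at 8.50 and 9.0 in Ifnar1-/- cells (difference -4.52, adjusted p = 0.00539). Hey1, a transcriptional repressor downstream of Notch, was at 9.29 and 9.93 and at 4.78 and 4.97 in WT and at 9.90 and 9.69 and at 8.97 and 8.92 in Ifnar1-/- cells (difference -3.88, adjusted p = 8.7e-05). The 2 WT arrays with LPS lay below every other array of these groups in both genes. Abhd15 (-3.50), the translation inhibitor Pdcd4 (-3.43), the lipoprotein receptor family member Lrp8 (-3.77), the zinc finger gene Zfp704 (-4.31) and the sphingosine-1-phosphate transporter Spns2 (-5.93) had differences of this kind. Spns2, Lrp8 and Zfp704 were not well above background on either WT array with LPS, so their falls there are bounds, of at least 5.77-fold for Spns2, 7.07-fold for Lrp8 and 62.4-fold for Zfp704. Among these genes, leaving out 1 array ended the call for Abhd15 (difference, LPS 1, adjusted p up to 0.0665), Pdcd4 (difference, any array but LPS 1 or untreated 2, 0.148), Lrp8 (difference, any array but LPS 2, 0.173), Spns2 (difference, any array but LPS 2 or untreated 1, 0.0831) and Spns2 (change with LPS, LPS 1, LPS 2 or untreated 2, 0.267). Other processing ended the call for Abhd15 (difference, probe median, adjusted p up to 0.0571), Pdcd4 (difference, no filter, only the arrays compared, 0.0777), Zfp704 (difference, normexp, 0.154) and Spns2 (change with LPS, normexp, no filter, 0.0904).

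**Figure D3:**
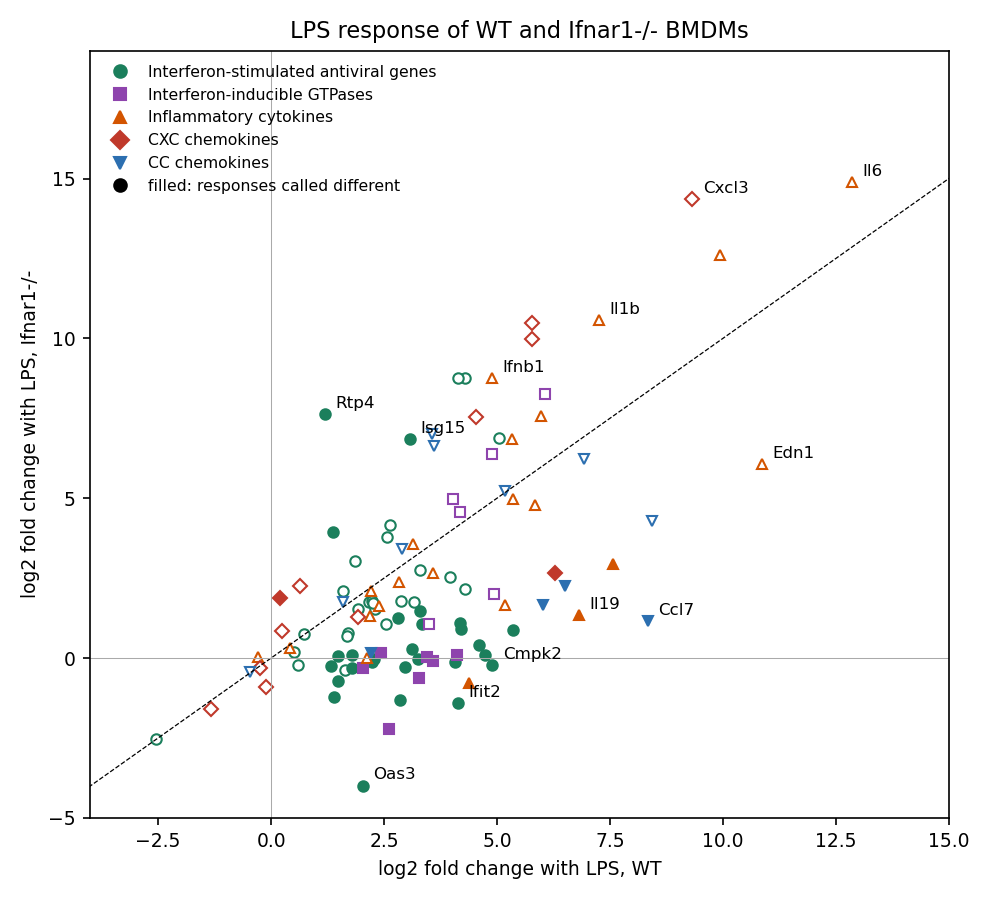
Log2 fold change with LPS in WT (x axis) against that in Ifnar1-/- BMDMs (y axis) for the tested members of 5 gene lists (marker shapes), with filled markers where the difference of the changes was called and the line of equal change dashed. Of the antiviral genes and GTPases, 24 and 7 lie below the line as filled markers, and Isg15, Rtp4 and Ifitm3 lie above it as filled markers. Open markers of these lists, such as Ifit1, Gbp2 and Gbp5, also lie above it.

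Enzymes that make microbicidal or signalling metabolites rose strongly. Of 12 genes of nitric oxide, arginine, tryptophan and itaconate metabolism 9 were called higher and 1 lower (median 3.27 log2). Besides Nos2, these were Acod1, which makes itaconate from aconitate, at 12.53 and 10.81 without and at 18.21 and 18.07 with LPS (6.47 log2, SE 1.65, adjusted p = 0.00382), the arginine transporter Slc7a2 (5.41), Ass1 (3.34), which recycles citrulline to arginine, and Gch1 (3.38), which makes the cofactor of Nos2. Arg1, which takes arginine away from Nos2, was at 4.02 and 3.19 and at 4.95 and 8.67 (3.20 log2, adjusted p = 0.024) and the LPS arrays lay far apart. Its probe was above background on 1 of the 2 untreated arrays. Arg2 had 1.04 log2, and the member called lower was Asl (-0.70). With 1 array left out, the call ended for Arg1 (LPS 2 or untreated 2, adjusted p up to 0.385). Processed otherwise, the call ended for Arg1 (authors' values, only the arrays compared, adjusted p up to 0.136) and Asl (only the arrays compared, 0.0648).

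Genes of eicosanoid metabolism changed in both directions. Of 16 genes 6 were called higher and 7 lower (median -0.99 log2). Pla2g4a, the cytosolic phospholipase that frees arachidonic acid, was at 10.01 and 10.01 without and at 14.61 and 14.83 with LPS (4.71 log2), and with Ptgs2 the prostaglandin E synthases Ptges (1.80) and Ptges2 (0.70) rose. The constitutive cyclooxygenase Ptgs1 went from 13.05 and 12.98 to 11.16 and 10.03 and fell (-2.42 log2), and so did Hpgd, which degrades prostaglandins, from 14.05 and 14.24 to 10.05 and 10.01 (-4.12 log2). The leukotriene genes Alox5 (-1.63), Alox5ap (-1.43) and Lta4h (-1.70) and the synthases of thromboxane, Tbxas1 (-1.43), and of prostaglandin D2, Hpgds (-1.03), fell too. The call ended with 1 array left out for Ptges2 (LPS 1 or untreated 2, adjusted p up to 0.07), Ptgs1 (LPS 2, 0.055), Alox5 (LPS 2 or untreated 2, 0.167) and Hpgds (any array, 0.126). Under other processing the call ended for Ptges2 (only the arrays compared, adjusted p up to 0.0667), Alox5 (only the arrays compared, 0.0791) and Hpgds (75th percentile shift, 0.0767).

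Central metabolism moved less. Of 24 genes of glycolysis and hypoxia 8 were called higher and 1 lower (median 0.47), which the 75th percentile shift raised to 13 higher and a median of 0.87. Without LPS replicate 1, 16 were called in all. Pfkfb3, which makes the activator of phosphofructokinase, was at 11.36 and 12.05 without and at 16.20 and 16.59 with LPS (4.69 log2), and the glucose transporter Slc2a1 at 12.15 and 12.41 and at 14.32 and 15.67 (2.72 log2). The lactate exporter Slc16a3 (2.07) and Hif1a (2.07), the oxygen-sensing factor, rose, and the hexokinases Hk1 (-0.21), Hk2 (0.53) and Hk3 (0.64) were not called. Vegfa, a target of Hif1a, went from 11.78 and 12.11 to 7.75 and 9.58 and fell (-3.28 log2). In the TCA cycle 2 of 26 genes were called higher and 11 lower (median -0.54, and -0.05 with 6 lower under the shift). The isocitrate dehydrogenases Idh1, at 12.28 and 11.93 and at 10.16 and 9.66 (-2.20 log2), and Idh2 (-1.90) fell, as did Aco1 (-1.05), while Cs (-0.02) was not called. A block for the slide brought Hk2 (adjusted p = 0.0233) and Hk3 (0.032) past the threshold. Leaving out 1 array ended the call for Slc16a3 (LPS 2, untreated 1 or untreated 2, adjusted p up to 0.381) and Aco1 (LPS 2 or untreated 2, 0.104). The call ended under other processing for Slc16a3 (only the arrays compared, adjusted p up to 0.135).

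Large complexes of energy and protein production gave counts that depended on the scaling. Of 48 genes of the respiratory chain and ATP synthase 1 was called higher and 21 lower with a median of -0.38 log2, and under the 75th percentile shift these were 3 and 0 with a median of 0.16. Of 47 cytosolic ribosomal proteins 0 were higher and 23 lower (median -0.39), and under the shift 0 were called in either direction (median 0.13). Of 54 mitochondrial ribosomal proteins 3 were higher and 19 lower (median -0.22), and under the shift 8 and 4 (median 0.08). Leaving out 1 array also moved these counts, to as few as 11 called in the respiratory chain and 10 in the mitochondrial ribosome (both without LPS replicate 1) and 6 in the cytosolic ribosome (without untreated replicate 1). No direction can be given for these complexes.

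Sterol genes changed both ways, with 7 of 36 called higher and 8 lower (median 0.32), and 9 in all without untreated replicate 2. These shares are near the 16.5% and 25.0% of all genes. Idi1, an isomerase of the isoprenoid steps, was at 12.89 and 11.63 without and at 13.98 and 13.79 with LPS (1.62 log2), and Hsd17b7 (2.48) of the later steps also rose. Hmgcs1 (0.64), Mvk (-0.64) and Pmvk (0.46) were not called, and Dhcr7, the last step to cholesterol, fell by 2.90 log2. The cholesterol exporter Abcg1 (-1.77), Soat1 (-2.06), which esterifies cholesterol, and the desaturase Scd2 (-2.39) fell. Fitted with the slide as a block, Hmgcs1 (adjusted p = 0.0348) and Mvk (0.0297) passed the threshold. Calls that ended with 1 array left out were those of Idi1 (LPS 1, LPS 2 or untreated 2, adjusted p up to 0.269) and Hsd17b7 (LPS 1 or untreated 2, 0.152). Calls also ended under other processing for Idi1 (only the arrays compared, adjusted p up to 0.064) and Scd2 (only the arrays compared, 0.0773).

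Genes of DNA replication and mitosis were lower more often than higher, with 22 of 46 called lower and 5 higher (median -1.30 log2, and -1.23 under the 75th percentile shift). E2f2, a factor that drives cells into S phase, was at 12.16 and 12.22 without and at 5.31 and 6.11 with LPS (-6.48 log2, SE 0.70, adjusted p = 1.16e-06). Cdc6, which loads the replicative helicase, went from 6.75 and 7.20 to 2.85 and 3.97, where it was not well above background on either LPS array, and was at least 10.3-fold lower. The helicase subunits Mcm2 (-2.70) and Mcm7 (-2.41), the ribonucleotide reductase subunit Rrm2 (-3.02), the cyclin Ccna2 (-2.21) and the cytokinesis motor Kif23 (-3.41) fell, and the CDK inhibitor Cdkn1a rose by its brightest probe (2.02), whereas the median of its probes was lower (-1.22, adjusted p = 0.0157). Not all proliferation genes followed. Mki67, the Ki-67 antigen, was at 12.25 and 11.15 and at 13.01 and 12.46 and rose by 1.03 log2, Tyms (2.65) and Tpx2 (2.52) rose, and Top2a (-1.42) and Ccnb1 (-1.11) were not called. With the slide as a block in the fit, Top2a (adjusted p = 0.00839) and Ccnb1 (0.000253) were called. Among these genes, leaving out 1 array ended the call for Ccna2 (LPS 2 or untreated 1, adjusted p up to 0.271) and Mki67 (LPS 1 or untreated 2, 0.428). Other processing ended the call for Ccna2 (no filter, only the arrays compared, adjusted p up to 0.084) and Mki67 (only the arrays compared, 0.158).

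The largest falls of single genes were spread over functions. Zfyve28, a FYVE-domain protein that restrains EGF receptor signalling, was at 11.59 and 12.67 without and at 4.81 and 4.15 with LPS (-7.64 log2, SE 0.67, adjusted p = 1.54e-07). Frat1, which binds the kinase GSK3 in the Wnt pathway, was at 11.93 and 11.52 and at 3.05 and 5.86 (-7.27 log2, SE 0.95, adjusted p = 9.01e-06) and above background on 1 of the 2 LPS arrays. Zfp704 was at 9.50 and 9.64 without LPS and not well above background on either LPS array, at least 62.4-fold lower, and the GTPase-activating protein Arhgap19 was at least 43.4-fold lower in the same way. Engase, which cleaves free N-glycans, was at 14.21 and 14.66 and at 6.92 and 8.44 (-6.76 log2, SE 0.63, adjusted p = 2.9e-07). The pro-apoptotic BH3-only gene Bmf was at 12.76 and 13.03 and at 5.87 and 7.56 (-6.18 log2, adjusted p = 6.2e-07). Log2 fold changes of -6.58 for Rasgrp3, an exchange factor for Ras and Rap, -6.65 for Fam214a, -6.31 for Susd3 and -6.20 for the sialyltransferase St6gal1 completed the 12 genes beside Cxcr4 and E2f2. For St6gal1 another of its probes was called in the opposite direction. In each of the 12 genes both LPS arrays lay below both untreated arrays, where 1 direction on both slides was a condition of their choice.

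Genes that mark the macrophage itself had a list median of -0.45 log2, which turned to 0.12 under the 75th percentile shift, with 8 of 34 called higher and 11 lower (11 and 4 under the shift). Of all genes 16.5% were called higher and 25.0% lower. Csf1r, the receptor of M-CSF, had -0.37 log2 (adjusted p = 0.0571), Adgre1, which encodes F4/80, 0.18 and Cx3cr1 -1.20. Mertk, which takes up apoptotic cells, went from 12.14 and 12.63 to 10.51 and 9.81 (-2.22 log2), and its bridging ligand Gas6 fell by 2.55. Gpr34, a lysophosphatidylserine receptor, went from 10.64 and 11.19 to 5.06 and 5.41 (-5.68 log2). The scavenger receptor Msr1 (3.54) and the Fc receptors Fcgr2b (3.99) and Fcgr4 (3.14) rose. Of 16 complement genes 7 were called higher and 4 lower (median 1.15), against 16.5% and 25.0% of all genes. Without LPS replicate 2, 5 were called in all. Cfb, factor B of the alternative pathway, was at 10.76 and 9.49 without and at 16.46 and 16.71 with LPS (6.46 log2), C3 rose by 2.22 and C1ra by 2.39, C1qa (-0.78) and C1qc (-0.53) fell slightly and C1qb had -0.28. A block for the slide brought Csf1r (adjusted p = 0.01) past the threshold. With 1 array left out, the call ended for Gas6 (LPS 2, adjusted p up to 0.0761), C3 (LPS 2 or untreated 2, 0.0628), C1qa (LPS 2 or untreated 2, 0.0823) and C1qc (any array, 0.196). Processed otherwise, the call ended for C1qa (75th percentile shift, only the arrays compared, adjusted p up to 0.683) and C1qc (75th percentile shift, no filter, only the arrays compared, 0.939).

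Lysosomal and autophagy genes were more often lower, with 16 of 30 called lower and 3 higher (median -0.67 log2), and the 75th percentile shift left 8 lower and 5 higher (median -0.10). The autophagy genes Ulk1 (-2.64), Map1lc3b (-2.06) and Atg7 (-1.65) and the proton pump subunit Atp6v0d2 (-2.53) fell, and Atg16l1 (2.88) rose. Among lysosomal proteins Lamp1 (-0.58) and Ctsa (-0.70) fell, Lamp2 rose by 0.47 and the protease Ctsb had -0.09. The call ended with 1 array left out for Ctsa (LPS 2 or untreated 1, adjusted p up to 0.193) and Lamp2 (LPS 2, untreated 1 or untreated 2, 0.333). Under other processing the call ended for Lamp1 (75th percentile shift, only the arrays compared, adjusted p up to 0.954), Ctsa (75th percentile shift, normexp, authors' values, only the arrays compared, 0.844) and Lamp2 (normexp, authors' values, no filter, probe median, group filter, only the arrays compared, 0.312).

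Single genes of iron handling changed strongly. Lcn2, which binds bacterial siderophores, was at 9.62 and 10.04 without and at 16.03 and 16.65 with LPS (6.51 log2), Cp, the ferroxidase ceruloplasmin, at 8.68 and 7.88 and at 15.23 and 15.49 (7.08 log2), and Hp, the haemoglobin-binding haptoglobin, rose by 5.58. Slc40a1, the iron exporter ferroportin, went from 12.43 and 12.80 to 7.83 and 7.71 (-4.84 log2), and the transferrin receptor Tfrc fell by 1.16. Of 14 members 6 were called higher and 4 lower (median 0.40), with Fth1 (-0.22), Slc11a1 (-0.23) and Ftl1 (-0.41, and 0.20 under the 75th percentile shift) near 0 and Slc11a2 at 1.41. Of 22 NRF2 and antioxidant genes 7 were called higher and 7 lower (median 0.06), against 16.5% and 25.0% of all genes. The cystine transporter Slc7a11 rose by 6.85 log2, Hmox1, which degrades haem, by 1.16 and Keap1, the NRF2 inhibitor, by 0.76, Gclm (-1.23) and Cat (-1.73) fell, and Nfe2l2 (0.42), which encodes NRF2, and Nqo1 (-0.74) were not called. Leaving out 1 array ended the call for Tfrc (untreated 1, adjusted p up to 0.103), Ftl1 (any array, 0.221), Slc11a2 (LPS 2, 0.052), Hmox1 (LPS 2, untreated 1 or untreated 2, 0.221), Keap1 (LPS 1, 0.0567) and Gclm (untreated 1, 0.0789). The call ended under other processing for Tfrc (only the arrays compared, adjusted p up to 0.0641), Ftl1 (normexp, authors' values, no filter, group filter, only the arrays compared, 0.212), Hmox1 (no filter, 0.0562) and Keap1 (only the arrays compared, 0.0685).

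Receptors for nucleotides and lysophospholipids changed in both directions. The adenosine receptor Adora2a, which raises cyclic AMP, was at 6.24 and 6.10 without and at 12.90 and 12.52 with LPS (6.54 log2), and Adora2b (5.48) and Adora3 (3.33) rose. The ATP-gated channel P2rx7 went from 13.69 and 13.97 to 11.03 and 11.49 (-2.57 log2) and the ADP receptor P2ry1 fell by 3.04, while P2rx1 (-0.34) and P2rx4 (-0.37) were not called. Lpar6 (-4.77) and S1pr1 (-3.28), receptors of lysophosphatidic acid and sphingosine-1-phosphate, fell and Gpr84 (4.55), a receptor of medium-chain fatty acids, rose. In all 6 of 21 were called higher and 5 lower, against 16.5% and 25.0% of all genes, and the median of -0.34 turned to 0.16 under the 75th percentile shift. Fitted with the slide as a block, P2rx4 (adjusted p = 0.00863) passed the threshold. Calls that ended with 1 array left out were those of S1pr1 (LPS 1, adjusted p up to 0.0649) and Gpr84 (LPS 2 or untreated 2, 0.0917). Calls also ended under other processing for P2rx7 (probe median, adjusted p up to 0.0685), where its log2 fold change was only -0.44.

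Cell death genes were raised at several points. Of 31 genes of necroptosis, apoptosis and pyroptosis 18 were called higher and 2 lower (median 1.13 log2). Mlkl, the pore-forming protein of necroptosis, was at 11.01 and 10.41 without and at 14.31 and 13.85 with LPS (3.37 log2), and its rise was larger than in Ifnar1-/- cells (1.07 log2, difference 2.30). The nucleic acid sensor Zbp1 rose by 3.61 log2, Ripk2 by 2.73 and the LPS-sensing caspase Casp4 by 2.99, whereas the kinases Ripk1 (0.32) and Ripk3 (0.55) were not called. Inhibitors of death rose as well, with 3.04 log2 for Cflar, which encodes cFLIP, and 3.67 for Bcl2a1d, one of several near-identical paralogs whose probes may share signal. The members called lower were Bmf and Bbc3 (-2.0), both BH3-only genes. With the slide as a block in the fit, Ripk1 (adjusted p = 0.038) was called.

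Of 20 genes of MHC class I presentation 11 were called higher and 0 lower (median 1.01 log2). The peptide transporter Tap1 was at 10.25 and 10.68 without and at 13.87 and 13.04 with LPS (2.99 log2), and Tap2 (2.13), the immunoproteasome subunits Psmb8 (1.56) and Psmb9 (1.47) and the transactivator Nlrc5 (3.16) rose. The nonclassical class I gene H2-M3 rose (1.03), and the class I heavy chains H2-K1 (0.19), H2-D1 (-0.27), H2-Q4 (-0.43) and H2-Q7 (-0.02), which are close in sequence, were not called. Of 19 class II and costimulation genes 6 were called higher and 3 lower (median 0.61), against 16.5% and 25.0% of all genes. Ciita, the transactivator of class II genes, went from 9.36 and 10.21 to 5.49 and 6.67 (-3.71 log2), H2-DMa fell by 0.77, and H2-Aa (-0.42), H2-Ab1 (-0.08) and H2-Eb1 (-0.25) were not called. Cd40, the receptor of T cell help, was at 10.49 and 10.92 without and at 16.67 and 16.38 with LPS (5.82 log2), the inhibitory ligand Cd274, PD-L1, rose by 4.38 and Cd86 by 2.52, and Cd80, which binds the same receptors as Cd86, went from 13.90 and 13.66 to 11.57 and 11.60 (-2.19 log2). Tnfsf4, the OX40 ligand, was not well above background without LPS and rose at least 27.6-fold. A block for the slide brought H2-Aa (adjusted p = 0.0416) past the threshold. Among these genes, leaving out 1 array ended the call for Ciita (LPS 1 or untreated 2, adjusted p up to 0.0653) and H2-DMa (LPS 2 or untreated 2, 0.256). Other processing ended the call for H2-DMa (75th percentile shift, only the arrays compared, adjusted p up to 0.162).

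**Figure D4:**
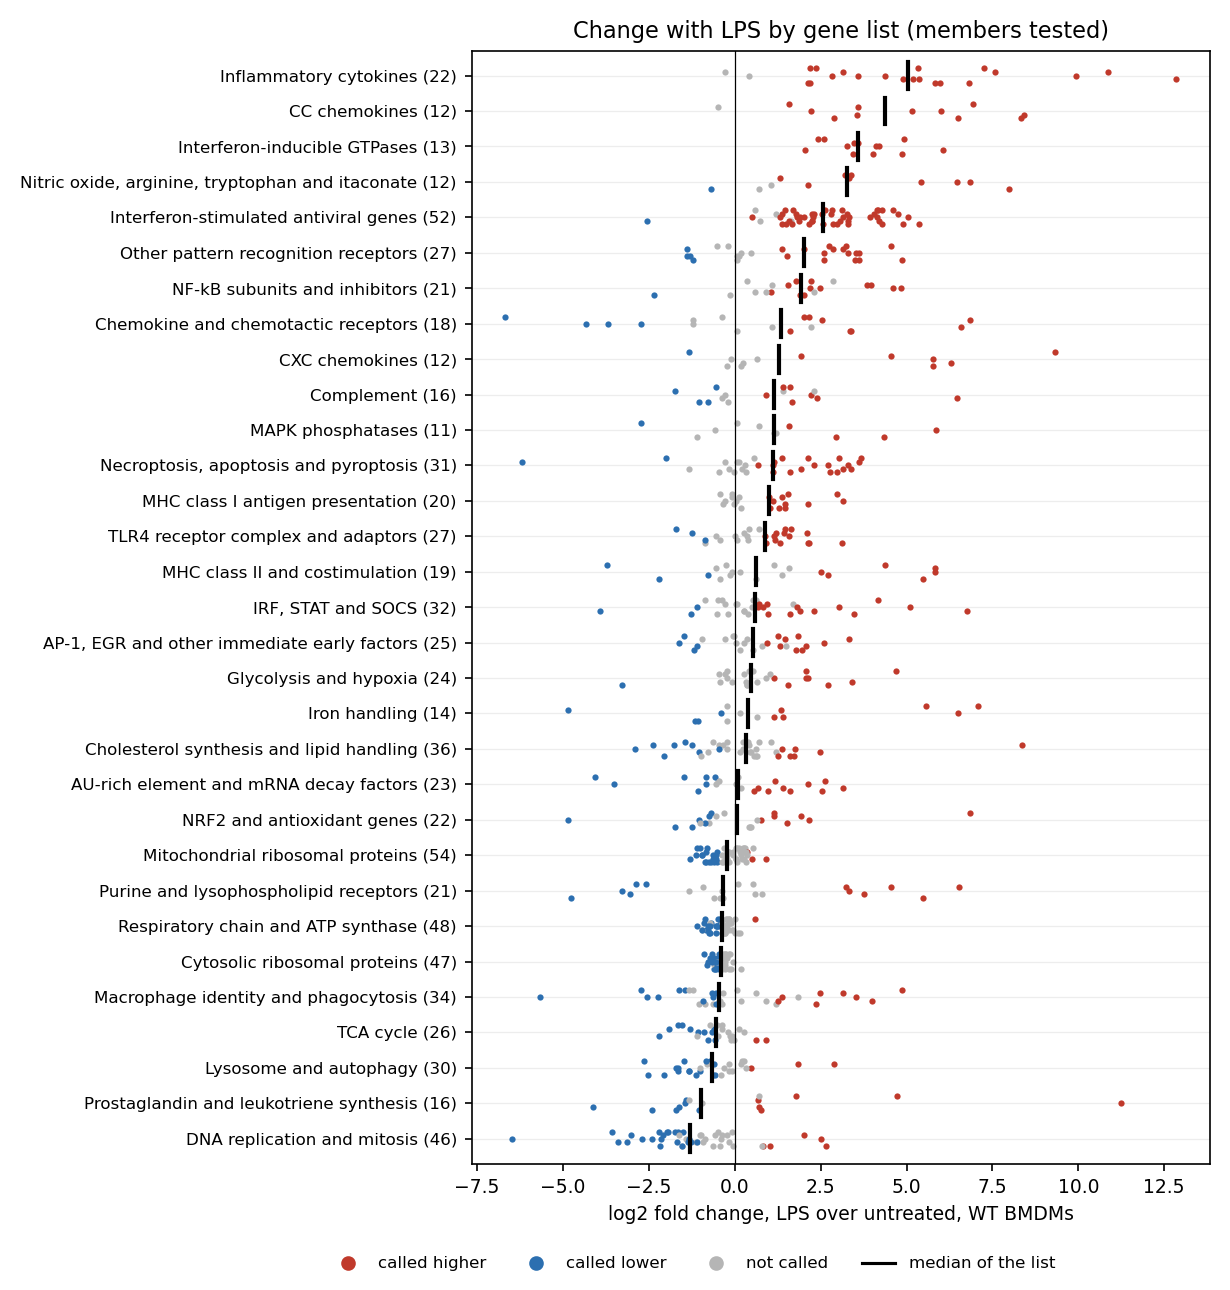
Log2 fold change with LPS over untreated WT BMDMs (x axis) for each tested member of the gene lists (rows, with the number tested), with genes called higher in red, called lower in blue and not called in grey, and the median of each list as a black bar. Inflammatory cytokines (median 5.04) and CC chemokines (4.38) lie farthest to the right and DNA replication and mitosis (-1.30) farthest to the left.

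Because LPS induces Ifnb1, WT BMDMs treated with LPS were set against WT BMDMs treated with IFNβ itself, without using the untreated arrays. At the doses used, 3258 genes differed, of which 1468 (9.36%) were higher and 1790 (11.4%) lower with LPS. With the slide as a block the count was 5371, and without replicate 1 of the IFNβ arrays it was 2006. Of the 52 antiviral genes 1 was higher with LPS and 10 with IFNβ, and of the 13 GTPases 0 and 5. Of the 22 cytokines 7 were higher with LPS and 2 with IFNβ, and of the 24 glycolysis and hypoxia genes 13 were higher with LPS and 2 with IFNβ. The agents thus differed by list in which gave the higher level more often.

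Genes of inflammation were among those with the largest differences on the side of LPS. The differences of Tnf, Il1b and Ccl2 were not called. Over untreated cells, IFNβ itself gave a median change of 2.98 log2 in the cytokine list and 3.73 in the CC chemokines. Il1a was at 2.33 and 5.34 with IFNβ and at 13.09 and 12.52 with LPS (LPS minus IFNβ 8.97 log2, SE 1.54, adjusted p = 0.000424), Cxcl3 at 2.74 and 6.02 with IFNβ (8.71 log2, SE 2.49, adjusted p = 0.017) and Gfi1 at 3.87 and 6.47 with IFNβ (8.15 log2, adjusted p = 0.00234). The probes of these 3 genes were above background on 1 of the 2 IFNβ arrays. Lcn2 was at 9.84 and 10.66 with IFNβ, near its untreated level, and differed by 6.09 log2 (adjusted p = 8.67e-05). Ambp (6.62), Wfdc21 (6.39), Lad1 (6.13), which encodes a protein of anchoring filaments, and Il17rd, a receptor related to those of IL-17 that restrains FGF signalling, were the others with the largest differences, and Ambp and Lad1 were above background on 1 of the 2 IFNβ arrays. Il17rd was at 4.91 and 5.64 without treatment, not well above background on either IFNβ array and at 9.44 and 8.02 with LPS, at least 25.9-fold higher than with IFNβ (adjusted p = 4.57e-06). The untreated arrays thus lay between those of the agents. Il12b, which was not tested, was at 2.78 and 4.06 with IFNβ and above background on 0 of these 2 arrays. Il6 was at 12.66 and 12.13 with IFNβ, and its difference of 3.92 log2 was not called. With 1 array left out, the call ended for Cxcl3 (LPS 1 or IFNβ 1, adjusted p up to 0.149).

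On the side of IFNβ, several genes were higher with that agent than in either other condition. Il12rb1, a receptor chain of IL-12 and IL-23, was at 5.30 and 5.88 without treatment, at 6.59 and 7.33 with LPS and at 12.73 and 12.34 with IFNβ (LPS minus IFNβ -5.57 log2, SE 0.40, adjusted p = 6.18e-08), although LPS also raised it by 1.37 log2. Cd300lf, an inhibitory receptor of myeloid cells, was at 11.11 and 11.05 without treatment, at 8.28 and 9.12 with LPS and at 14.41 and 14.46 with IFNβ (-5.73 log2, adjusted p = 4.19e-06). The 2 agents thus lay on opposite sides of the untreated arrays. Sectm1a (-5.31), Tppp3 (-5.26), a tubulin-binding protein, and Lmo1, a LIM-only factor that was not well above background with LPS and reached a level at least 25.6-fold higher under IFNβ, likewise exceeded the untreated arrays under IFNβ, with log2 fold changes under LPS of 1.29 for Sectm1a and -0.46 for Tppp3. For E2f2 the IFNβ arrays stayed at 11.35 and 11.71, and the difference of -5.82 log2 (adjusted p = 1.37e-05) was close in size to the fall with LPS. Mex3b (-5.52), an RNA-binding protein, and the inositol phosphatase Inpp5j (-5.89), above background on 1 of the 2 LPS arrays, differed likewise. Within the lists, IFNβ left the higher level of Cxcl9 (LPS minus IFNβ -2.58 log2), Ccl8 (-2.09), Gbp4 (-3.64), Tnfsf10 (-2.54) and Csf1 (-2.03), all of which LPS also raised over untreated cells. The call ended with 1 array left out for Il12rb1 (change with LPS, LPS 2 or untreated 1, adjusted p up to 0.113), Inpp5j (LPS minus IFNβ, LPS 1 or IFNβ 2, 0.116), Cxcl9 (LPS minus IFNβ, LPS 2 or IFNβ 1, 0.0817), Ccl8 (LPS minus IFNβ, LPS 2, IFNβ 1 or IFNβ 2, 0.227), Tnfsf10 (LPS minus IFNβ, LPS 2 or IFNβ 1, 0.112) and Csf1 (LPS minus IFNβ, LPS 2, 0.0788). Processed otherwise, the call ended for Il12rb1 (change with LPS, normexp, only the arrays compared, adjusted p up to 0.0871), Inpp5j (LPS minus IFNβ, only the arrays compared, 0.0862), Ccl8 (LPS minus IFNβ, no filter, only the arrays compared, 0.0827), Tnfsf10 (LPS minus IFNβ, only the arrays compared, 0.0574) and Csf1 (LPS minus IFNβ, probe median, only the arrays compared, 0.866). By the probe median the difference of Csf1 was only -0.19 log2.

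**Figure D5:**
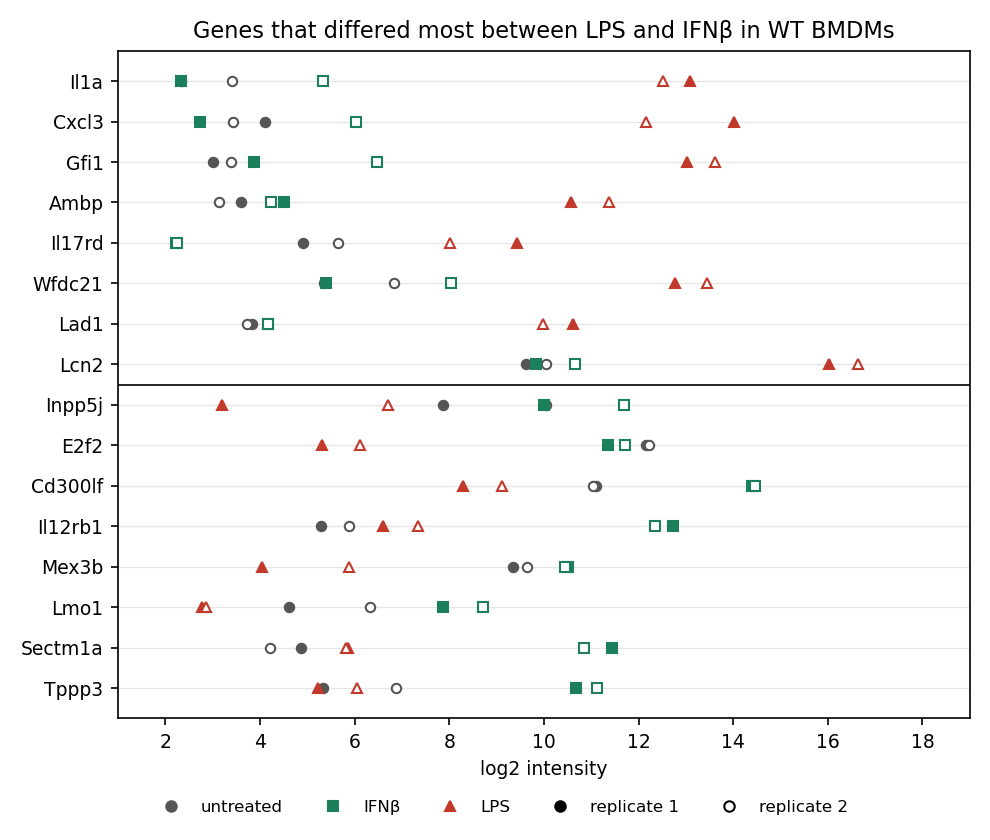
Log2 intensity (x axis) of the 8 named genes highest in LPS relative to IFNβ (upper block) and the 8 lowest (lower block) on the untreated (grey circles), IFNβ (green squares) and LPS (red triangles) arrays of WT BMDMs, with replicate 1 filled and replicate 2 open. In every gene the 2 LPS arrays lie on the same side of both IFNβ arrays, where 1 direction by replicate number was a condition of the choice.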

How the data were processed

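RNA of BMDMs was labelled in 1 colour and hybridized to Agilent SurePrint G3 8x60K mouse arrays. The deposited scanner files hold intensity values, which the authors' Feature Extraction software (version 11.5.1.1) had background-subtracted for each array. A deposited table of log2 values, which the authors had filtered and quantile-normalized, was used as an alternative. No column of that table was left without a sample.

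From the processed intensity, outlier spots were left out (200 to 499 on each of the 4 arrays) and log2 values were quantile-normalized over all 32 arrays. Probes well above background on at least 50% of the arrays were kept, as in the study's methods. Of 55681 probes 32431 had a gene name, 27656 through a RefSeq accession, 3401 through the symbol and 320 through a synonym, and 1054 kept the name of the array design. The brightest of a gene's probes stood for the gene (21114 probes, 15685 genes, 4364 of them with several probes, and 55 with probes called in opposite directions).

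limma 3.58.1 in R 4.3.3 was fitted to the 16 group means (16 residual degrees of freedom), with Benjamini-Hochberg adjustment over all genes and a threshold of 0.05. Every adjusted p comes from such a fit. It was tested on simulated data first. Fold changes written as "at least" replace a dim value by the lowest signal among probes well above background on that array.

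Named were the 15 genes with the largest rise and the 12 with the largest fall, the 8 with the largest difference in each direction in the other 2 comparisons, and members of gene lists, without clones and predicted loci. Those sets needed both arrays of the brighter group above background (for the genotypes, of the brighter WT group). They also needed 1 direction by replicate number in each comparison. The genes that differed between the genotypes had to be called against untreated WT cells as well. The members and lists were chosen with earlier results of these data known.

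Each slide held the 8 treatments of 1 genotype and 1 replicate number, by the array positions in the file headers, so the numbers pair the samples. Deviations of LPS and untreated arrays from their group means correlated by number with r = 0.469 over 15685 genes. Replicates correlated with r = 0.988 (untreated) and 0.98 (LPS). A block for the slide, a 75th percentile shift, normexp background correction, the authors' table, other filters, the median of probes, other sets of arrays and leaving out each array were the alternatives. Promoters came from a RefSeq table on GRCm38.p6. Some members of the lists are not reported here by name.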

Additional observations from a re-analysis of the deposited data

Results flagged for a closer look

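Each gene below changed differently with LPS in WT and in Ifnar1-/- BMDMs by the test of the difference itself (limma, adjusted over 15685 genes), with the difference given on the log2 scale as the change in WT minus that in Ifnar1-/- cells. The genes are those of the report's lists and of the largest differences, so a gene that is not listed here was not shown to respond alike in both genotypes. Each genotype had slides of its own, and the slide cancels within each change. No cause of any difference was tested. Leaving out any 1 array ended the call of the difference for Isg15. Leaving out certain single arrays ended it for Lrp8, Pdcd4, Spns2, Cxcl9, Ifi209, Rsad2, Dusp1, Cish and Abhd15. That of Zfp704 ended under normexp.

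Genes of antiviral defence and of the IFN pathway had the larger rise in WT, with differences of 6.02 for Oas3 (adjusted p = 0.000615), 5.96 for Ifi214, 5.56 for Ifi209 (0.0208), 5.54 for Ifit2, 5.12 for Cmpk2, 4.47 for Rsad2 (0.0131), 3.87 for Irf7 and 3.68 for Igtp. Ifi214 was not well above background on any Ifnar1-/- array and Ifit2 on neither Ifnar1-/- array with LPS, so these differences rest on dim values. Oas3 and Ifi209 had log2 fold changes of -3.99 and -1.35 in Ifnar1-/- cells.

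Secreted mediators and other genes with the larger rise in WT followed. The chemokines Ccl7, Ccl2 and Cxcl9 differed by 7.18, 4.25 and 3.62, the cytokine Il19 by 5.47, the IL-1 receptor antagonist Il1rn by 4.64, and Tnfsf10, which was not well above background on any Ifnar1-/- array, by 5.14. The phosphatase Dusp1 differed by 3.51 and the necroptosis effector Mlkl by 2.30. Slfn4 differed by 7.66, again without an Ifnar1-/- array above background. Lhx2 differed by 7.39 and the paralogs Slc28a2b and Slc28a2 by 6.20 and 6.13. In Lhx2 the change was 5.98 in WT and -1.41 in Ifnar1-/- cells, and in Slc28a2 it was 5.65 and -0.48.

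In the other direction, 3 antiviral genes had the smaller rise in WT. These were Rtp4 with a difference of -6.44 (adjusted p = 0.00534), Isg15 with -3.79 (0.0486) and Ifitm3 with -2.58 (0.00701), and the STAT5 inhibitor Cish stood with them at -3.39 (0.0124). Genes that fell in WT gave differences of -5.93 for Spns2, -4.52 for Irf4, -4.31 for Zfp704, -3.88 for Hey1, -3.77 for Lrp8, -3.50 for Abhd15 and -3.43 for Pdcd4. Spns2, Zfp704 and Lrp8 were not well above background on either WT array with LPS. Spns2 and Irf4 changed by 3.24 and 0.59 in Ifnar1-/- cells, against -2.69 and -3.93 in WT.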

How the results depend on the processing

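The 6515 genes changed by LPS in WT BMDMs stayed within 1.5 times that number under every alternative run, from 4397 with only the 4 arrays compared to 8508 with the slide as a block, and from 4741 (without LPS replicate 1) to 5896 (without LPS replicate 2) with 1 array left out. Of the 1062 genes whose change differed between the genotypes, the block for the slide gave 2673, and leaving out 1 array gave 531 (without LPS replicate 1 of WT) to 1616 (without LPS replicate 2 of WT), with each of the 8 arrays moving the count by over 1.5 times. With the Ifnar1-/- arrays of LPS, zVAD and Nec-1 left out of the fit, the difference was called for 1567 genes. Of the 3258 genes that differed between LPS and IFNβ, the block gave 5371, a fit to only the arrays compared 657, and leaving out 1 array 2006 (without IFNβ replicate 1) to 2541. The cause of these shifts was not tested, and the last fit has fewer arrays to estimate the spread. Over the 342 named results the alternatives gave 4567 values, of which 4218 kept direction and call, 254 lost the call, 52 gained it and 43 changed sign. The pairing by slide ended no call and brought 16, each given beside its gene, as are the other calls that ended. The fit without the Ifnar1-/- arrays of LPS, zVAD and Nec-1 ended no call and brought 6.

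All sign changes were in the log2 fold change of LPS over untreated cells, and apart from Ftl1 and Cdkn1a all were in genes that were not called. Under the 75th percentile shift the values became 0.22 for C1qb, 0.12 for Ccl6, 0.63 for Cs, 0.21 for Csf1r, 0.46 for Ctsb, 0.46 for Fth1, 0.20 for Ftl1, 0.15 for H2-Aa, 0.42 for H2-Ab1, 0.25 for H2-D1, 0.26 for H2-Eb1, 0.20 for H2-Q4, 0.48 for H2-Q7, 0.23 for Hk1, 0.16 for Irf3, 0.16 for P2rx4, 0.35 for Slc11a1 and 0.05 for Tgfb1. Normexp gave 0.05 for H2-Ab1 and -0.01 for Tlr5, the authors' normalized values 0.17 for H2-Aa and -0.32 for Tlr5, and the median of probes -1.22 for Cdkn1a and 0.49 for Hk1. Leave-one-out values ran from -0.14 to 0.10 for Cs, -0.23 to 0.06 for Ctsb, -0.25 to 0.33 for Fosb, -1.06 to 0.23 for H2-Aa, -0.40 to 0.24 for H2-Ab1, -0.66 to 0.16 for H2-Eb1, -0.14 to 0.11 for H2-Q7, -0.66 to 1.41 for Lbp, -0.19 to 1.01 for Mif, -0.11 to 0.49 for Pf4, -0.54 to 0.08 for Slc11a1, -0.19 to 0.31 for Tlr5 and -1.24 to 0.31 for Tppp3.

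Among lists, the fit to only the 4 arrays called 17 genes of DNA replication and mitosis in place of 27, 11 lysosomal genes in place of 19 and 11 mRNA decay factors in place of 17. Leaving out untreated replicate 2 turned the median of the sterol genes to -0.02. Fold changes are bounds where neither array of a group was above background, and uncertain in size where 1 of the 2 was.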
